A study of Mus musculus with 20 samples.

Results

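The immediate early genes described here are Fos, Fosb, Jun, Junb, Egr1, Atf3, Ier2, Dusp1, Zfp36 and Btg2, chosen by name, and they are 10 of the 26619 genes in the deposited table of distal colon (DC) read counts. On GRCm39 they lie on chromosomes 12 (Fos), 7 (Fosb and Zfp36), 4 (Jun), 8 (Junb and Ier2), 18 (Egr1), 1 (Atf3 and Btg2) and 17 (Dusp1). The samples were pieces of DC, one from each of 20 C57BL/6 mice. From 3 weeks of age all mice ate the Total Western Diet (TWD), whose nutrients follow what people in the United States eat, for 6 weeks. For a further 3 weeks, 5 mice stayed on the TWD alone (0% RPS) and 5 each ate the TWD with resistant potato starch (RPS) added to 2, 5 or 10% of its weight. RPS is called raw potato starch in the labels and is a starch that escapes digestion and is fermented in the large bowel. The comparison asked whether added RPS changed gene expression in the DC. For 3 of the 20 mice the labels disagree on the RPS level: the description and the treatment field read 5% and 2% for RS10_717, 10% and 5% for RS10_725, and 2% and 10% for RS10_748. The description was used here.

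Immediate early genes are transcribed within minutes of a stimulus, from transcription factors that already sit in the cell, and need no new protein for it. Growth factors, cytokines, stretch, wounding and tissue handling all switch them on through the MAP kinase cascade, calcium and cyclic AMP, which act on serum response factor with its ternary complex partners and on CREB. Their messages are short-lived, so the level in a tissue follows its last hour or so. Fos, Fosb, Jun and Junb encode the subunits of AP-1, a dimeric transcription factor. Egr1 encodes a zinc finger transcription factor and Atf3 a stress-induced factor of the ATF/CREB family. Ier2 encodes a small nuclear protein. The other three act as brakes: Dusp1 encodes a phosphatase that switches off MAP kinases, Zfp36 encodes tristetraprolin, which speeds the decay of cytokine and immediate early messages, and Btg2 encodes an antiproliferative factor tied to mRNA deadenylation.

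The stretch before each start site is among the places where such inputs are read, so it is shown here for the 6 genes whose pairs rose and fell together most closely among mice (values further on) and for which a window was at hand. The windows come from RefSeq on GRCm38.p6, which held 8 of the 10 genes (all but Egr1 and Ier2). Each line gives the 170 bases that end just before the start site, 5′ to 3′ on the gene's strand. Capitals mark a cyclic AMP response element (CRE, TGACGTCA), its short form (TGACG or CGTCA) or, in Zfp36, a CArG box, the element that serum response factor binds.
Fos: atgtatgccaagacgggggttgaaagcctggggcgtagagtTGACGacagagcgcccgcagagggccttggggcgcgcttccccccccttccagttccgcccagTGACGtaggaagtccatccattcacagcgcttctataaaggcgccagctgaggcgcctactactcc
Zfp36: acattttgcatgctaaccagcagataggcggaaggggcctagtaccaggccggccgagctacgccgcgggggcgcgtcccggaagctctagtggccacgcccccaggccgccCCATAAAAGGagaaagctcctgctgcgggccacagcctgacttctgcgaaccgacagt
Dusp1: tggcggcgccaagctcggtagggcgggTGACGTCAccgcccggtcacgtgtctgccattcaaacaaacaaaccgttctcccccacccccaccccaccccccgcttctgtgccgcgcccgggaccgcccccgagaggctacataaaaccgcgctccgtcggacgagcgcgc
Btg2: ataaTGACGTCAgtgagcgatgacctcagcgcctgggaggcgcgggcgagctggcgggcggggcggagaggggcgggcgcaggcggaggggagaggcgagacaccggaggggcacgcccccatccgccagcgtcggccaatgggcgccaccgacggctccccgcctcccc
Fosb: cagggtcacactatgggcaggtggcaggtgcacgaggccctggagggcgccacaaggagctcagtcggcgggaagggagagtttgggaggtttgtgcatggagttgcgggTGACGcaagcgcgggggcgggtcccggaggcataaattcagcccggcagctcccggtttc
Atf3: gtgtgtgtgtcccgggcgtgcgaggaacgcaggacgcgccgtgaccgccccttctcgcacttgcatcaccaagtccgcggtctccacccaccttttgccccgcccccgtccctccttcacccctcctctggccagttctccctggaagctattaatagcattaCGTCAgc
These lie at chr12:85473720-85473889 (plus strand), chr7:28379229-28379398, chr17:26508473-26508642, chr1:134079156-134079325, chr7:19310046-19310215 and chr1:191183334-191183503 (all minus strand). Within 250 bases before the start and on either strand, the full CRE stood in Dusp1 and Btg2, 2 of the 8 genes, against 1.55% of 32851 windows in the genome. The short form stood in 6 of 8 (Fos, Fosb, Junb, Atf3, Dusp1 and Btg2) against 17.8% of windows, and each full CRE also counts as a short form. The CArG box stood in 1 of 8, Zfp36, against 1.47% of windows. The AP-1 site TGANTCA was found in 0 of 8 (6.75% of windows) and the ETS core CCGGAAGT in 0 of 8 (2.88% of windows). These are matches of letters in a short window and say nothing of binding.

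Libraries held 18.4 to 35 megacounts, with a mean of 32.8 ± 1.35 megacounts (SD, n = 5) at 0% RPS, 27.9 ± 2.61 at 2%, 28.3 ± 3.4 at 5% and 24.3 ± 3.42 at 10% RPS, so that mean depth was lowest at 10% RPS. The smallest library at 0% RPS held 31.3 megacounts, above the largest at 2% (31.1), 5% (30.4) and 10% RPS (26.6). All 10 genes were among the 17893 genes that passed the filter on low counts. Their counts ran from 88 (Fosb) to 16364 (Fos) per library, and counting error alone was at most 10.7% of a value. The sum of 11 epithelial markers ranged from 17490 to 25150 CPM (counts per megacount of the library) over the 20 mice and that of 10 smooth muscle markers from 6685 to 14830 CPM. Both kinds of tissue were thus in every piece, and in such bulk samples fewer cells of a type and less RNA per cell cannot be told apart. Levels are given below as CPM after TMM scaling, which adjusts library totals for composition. Per kilobase of the canonical transcript, Fos was highest with a mean of 86.9 CPM per kb over the 20 mice. Btg2 (60.5), Ier2 (45.0), Junb (43.3), Zfp36 (41.3) and Jun (29.7) followed, then Dusp1 (19.2), Atf3 (16.4), Egr1 (9.85) and Fosb (3.77).

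Added RPS did not move any of the 10 genes past the threshold in the DC. With a call taken as an adjusted p no higher than 0.05 together with a fold change of 1.5 or more (edgeR quasi-likelihood test, Benjamini-Hochberg over all tested genes), 0 of 10 were called at 10% RPS against 0%, where 0.0391% of all tested genes were called. At 5% and at 2% RPS against 0%, 0 of 10 were called as well, against 0% of all genes in both comparisons. The slope over RPS percent, tested without a fold threshold, passed for 0 of 10 genes and for 2.1% of all genes. The test for any difference among the 4 diets passed for 0 of 10 and for 0.0727% of all genes. In these 5 tests 0 of the 10 had an unadjusted p under 0.05, while 15.2, 9.19, 1.41, 19.1 and 10.6% of all genes did, in the same order. DESeq2 called 0 of 10 in each of them, against 1.21, 0.156, 0.00386, 6.02 and 2.01% of the genes it tested.

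**Figure D1:**
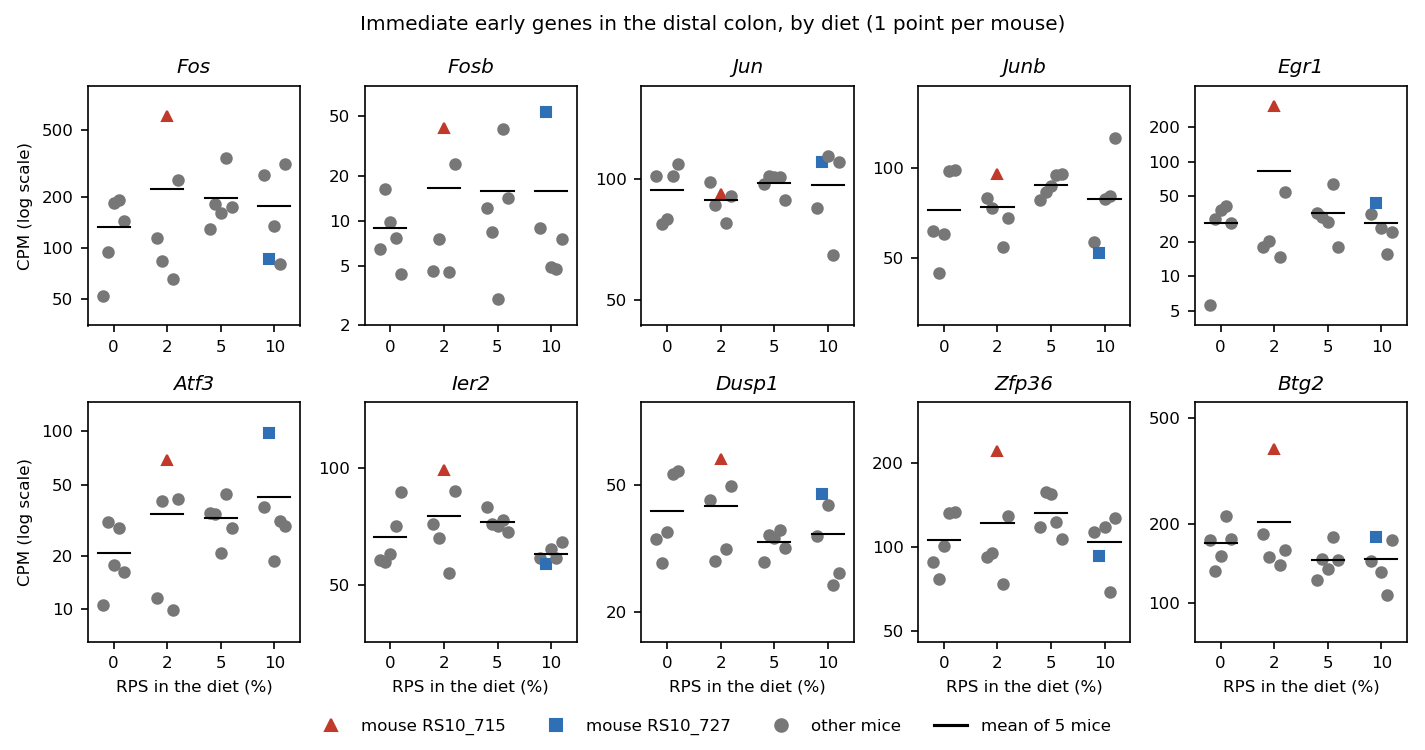
CPM of each of the 10 genes (vertical axis, log scale) against the RPS content of the diet (horizontal axis, percent), with 1 point per mouse and a bar at the mean of 5 mice. The 4 diets overlap in nearly every panel, and a single 2% mouse (red triangle, RS10_715, 604 CPM for Fos) or 10% mouse (blue square, RS10_727, 53.3 CPM for Fosb) stands above the rest of its group.

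Among the AP-1 genes, Fos stood at 52.6, 94.96, 185, 193 and 145 CPM in the 0% mice, and at 115, 84.6, 604, 65.8 and 252 CPM in the 2% mice. In the 5% mice it stood at 131, 184, 163, 343 and 176 CPM, and in the 10% mice at 271, 86.9, 136, 81.1 and 313 CPM. The means were 134 ± 59.7 CPM (SD, n = 5) at 0%, 224 ± 224 at 2%, 199 ± 83.0 at 5% and 178 ± 108 CPM at 10% RPS and the ranges of all diets overlapped. Against 0% RPS the log2 fold change of Fos was 0.74 (95% interval −0.50 to 1.98) at 2%, 0.57 (−0.67 to 1.81) at 5% and 0.41 (−0.83 to 1.64) at 10% RPS. The 2% value was −0.05 without RS10_715, the 5% value 0.28 without RS10_721 and the 10% value 0.10 without RS10_784.

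Fosb stood at 6.49, 16.4, 9.82, 7.68 and 4.37 CPM at 0% RPS and at 4.62, 7.55, 41.9, 4.54 and 24.0 CPM at 2%. At 5% it stood at 12.2, 8.38, 2.98, 40.9 and 14.2 CPM, and at 10% at 8.90, 53.3, 4.91, 4.74 and 7.49 CPM. In each RPS group 1 or 2 mice stood several times above the others, and the 0% mice lay closer together. The log2 fold changes were 0.89, 0.81 and 0.81 at 2, 5 and 10% RPS, each with an interval that held 0 (adjusted p = 1, 0.791 and 0.693, edgeR). Each rested on 1 mouse: the 2% value was 0.19 without RS10_715, the 5% value 0.07 without RS10_721 and the 10% value −0.45 without RS10_727.

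Jun and Junb varied far less. Jun ranged from 77.4 to 109 CPM at 0%, 77.7 to 98.5 at 2%, 88.6 to 102 at 5% and 64.6 to 114 CPM at 10% RPS. Its log2 fold change at 10% RPS was 0.04 (−0.22 to 0.31), so a rise of the 1.5-fold that defined a call lies outside that interval. Junb ranged from 44.4 to 98.8 CPM at 0%, 54.2 to 95.8 at 2%, 78.2 to 95.5 at 5% and 52.0 to 126 CPM at 10% RPS. Its log2 fold change at 10% was 0.12 (−0.38 to 0.62).

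Egr1 had the largest single fold change of the 10 genes. It stood at 5.58, 31.5, 38.2, 41.2 and 29.1 CPM at 0% RPS and at 18.01, 20.3, 307, 14.7 and 54.8 CPM at 2%. At 5% it stood at 35.9, 33.0, 29.8, 63.5 and 17.99 CPM, and at 10% at 35.1, 43.9, 26.3, 15.7 and 24.5 CPM. The log2 fold change at 2% RPS was 1.51 (−0.09 to 3.11, adjusted p = 1, edgeR), and it rested on 1 mouse: the 2% median of 20.3 CPM was below the 0% median of 31.5 CPM, and without RS10_715 the log2 fold change was −0.11. At 10% RPS it was 0.00 (−1.59 to 1.58).

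Atf3 stood at 10.6, 31.0, 17.6, 28.5 and 16.2 CPM at 0% RPS and at 11.5, 40.4, 68.8, 9.87 and 41.4 CPM at 2%. At 5% it stood at 34.9, 34.1, 20.6, 44.6 and 28.4 CPM, and at 10% at 37.5, 97.1, 18.7, 31.3 and 29.5 CPM. Of the 0% mice, 3 lay below the lowest 10% mouse and the other two lay inside the 10% range. The log2 fold change at 10% RPS was 1.04 (−0.06 to 2.14; adjusted p = 0.355, edgeR), the largest of the 10 genes at that level, and it was 0.50 without mouse RS10_727.

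Of the 10 genes, Ier2 had the largest share of its variance between diets, 26.9% (median of all tested genes 16.3%). It stood at 57.7, 57.3, 59.8, 70.7 and 86.5 CPM at 0%, at 71.7, 65.8, 98.5, 53.5 and 87.1 CPM at 2%, at 79.1, 71.7, 70.8, 73.3 and 68.1 CPM at 5%, and at 58.7, 56.4, 61.8, 58.5 and 64.5 CPM at 10% RPS. All 5% mice lay above all 10% mice, and 1.04% of all tested genes were separated in that pair of diets. It was the only separation for any of the 10 genes among the 6 pairs of diets. The other pairs separated 0 of the 10 genes, against 2.28% of all genes at 10% and 0%, 1.04% at 5% and 0%, 0.24% at 2% and 0%, 2.11% at 10% and 2%, and 0.956% at 5% and 2%. Tests between the RPS levels (10% against 5%, 10% against 2% and 5% against 2%) were all added after these values were seen. At 10% against 5% RPS the log2 fold change of Ier2 was −0.28 with an SE of 0.129 (edgeR adjusted p = 0.856). In that comparison 0 of 10 genes and 0% of all genes were called, and Ier2 alone of the 10 had an unadjusted p under 0.05, as 5.82% of all genes did. At 10% against 2% RPS Ier2 differed by −0.33 on the log2 scale, with an SE of 0.129 and an adjusted p of 0.309 in edgeR. There 0 of 10 genes were called against 0.0224% of all genes, and Ier2 alone had an unadjusted p under 0.05, against 12.4% of all genes. At 5% against 2% RPS 0 of 10 were called (0% of all genes) and 0 had an unadjusted p under 0.05 (6.53% of all genes). Against 0% RPS the log2 fold change of Ier2 was −0.15 (−0.42 to 0.12) at 10%.

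None of the 3 brakes passed a test. Dusp1 averaged 41.4 ± 12.3 CPM at 0%, 43.0 ± 12.9 at 2%, 33.1 ± 2.93 at 5% and 35.02 ± 9.89 CPM at 10% RPS (SD, n = 5 each). Zfp36 averaged 107 ± 25.6, 122 ± 58.8, 132 ± 22.8 and 104 ± 23.5 CPM, and Btg2 169 ± 30.2, 203 ± 102, 146 ± 20.5 and 147 ± 29.1 CPM, in the same order. At 10% RPS the log2 fold changes were −0.24 (−0.71 to 0.23) for Dusp1, −0.03 (−0.57 to 0.51) for Zfp36 and −0.20 (−0.69 to 0.29) for Btg2. At 2% RPS the Btg2 mean was raised by 1 mouse at 383 CPM, the other four lying between 140 and 182 CPM.

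**Figure D2:**
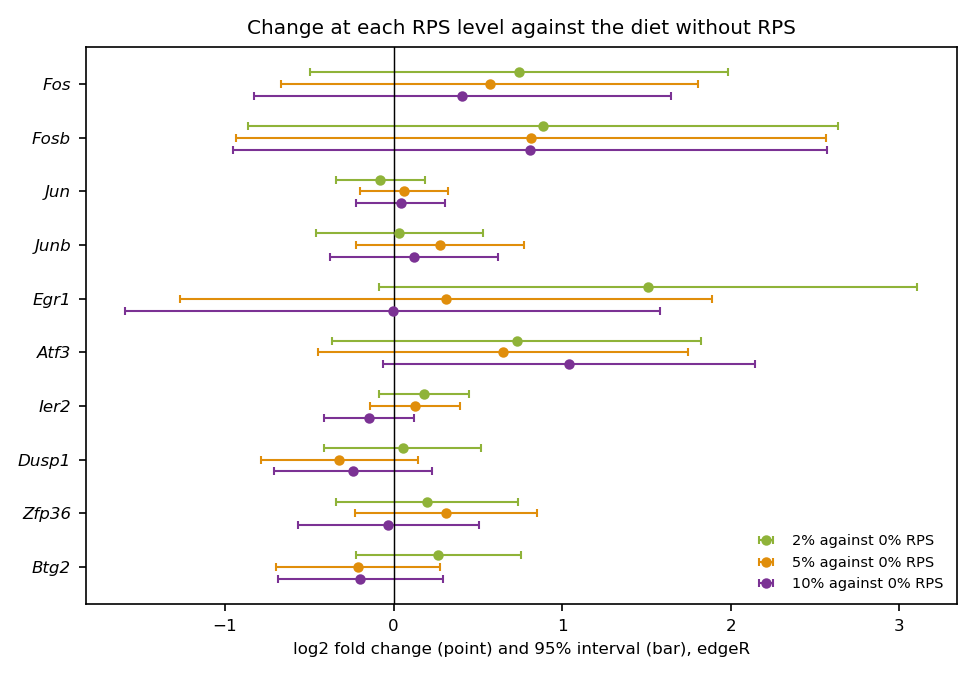
Log2 fold change of each gene (horizontal axis, edgeR) at 2, 5 and 10% RPS against the diet without RPS, with bars for the 95% interval. All 30 intervals cross 0, and they are widest for Egr1 and Fosb and narrowest for Jun and Ier2.

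The members of the group differed from one another in how much they varied between mice. The SD of log2 CPM over the 20 mice was 1.18 for Fosb, 1.10 for Egr1, 0.88 for Fos and 0.85 for Atf3. These values exceed those of 98 to 99% of all tested genes, whose median SD was 0.226. Junb (0.38), Dusp1 (0.38), Zfp36 (0.41) and Btg2 (0.38) exceeded 75.4 to 79% of them, and Jun (0.21) and Ier2 (0.24) were near the median. In CPM the highest mouse exceeded the lowest by 54.9-fold for Egr1, 17.9-fold for Fosb, 11.5-fold for Fos and 9.83-fold for Atf3. The same ratio was 3.56 for Btg2, 3.21 for Zfp36, 2.85 for Junb and 2.48 for Dusp1, and 1.84 for Ier2 and 1.77 for Jun. Between diets lay 2.61% (Fosb) to 26.9% (Ier2) of the variance in log2 CPM, against a median of 16.3% for all tested genes. Such a share is above 0 even without any effect of diet. Most of the variance of each gene lay between mice that ate the same diet. The labels give no order or time of sampling for single mice, and its part in this variance was not tested.

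Some mice stood apart, and they are named by the code in their labels. RS10_715 (2% RPS) was the highest mouse for 6 of the 10 genes: Fos at 604 CPM (median of the 20 mice 154), Egr1 at 307 (30.7), Zfp36 at 221 (116), Btg2 at 383 (150), Ier2 at 98.5 (66.9) and Dusp1 at 60.3 CPM (34.7). In Jun, at 91.8 CPM, it lay below the median of 98.0 CPM. Of all tested genes this mouse was the highest for 5.55%. Its 5 erythrocyte markers, the globins and Alas2, summed to 349 CPM against 12.7 to 83.8 CPM in the other 19 mice, and none of the 5 was at 0 in any library. By diet the erythrocyte sum ran from 18.9 to 48.1 CPM at 0%, 17.1 to 349 at 2%, 12.7 to 51.8 at 5% and 20.6 to 83.8 CPM at 10% RPS. Dbp, an output gene of the circadian clock, stood at 10.6 CPM in RS10_715, rank 17 of the 20 mice. The part of blood or of the time of day in the values of RS10_715 was not tested.

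RS10_727 (10% RPS) was the highest mouse for Fosb at 53.3 CPM (median 8.03) and Atf3 at 97.1 CPM (30.2), while its Fos stood at 86.9 CPM and its Junb at 52.0 CPM, both below the medians of 154 and 79.4 CPM. It held 61.3 CPM of Fosb per 100 CPM of Fos, against 1.83 to 17.2 in the other 19 mice. The orphan nuclear receptors Nr4a1, Nr4a2 and Nr4a3, immediate early genes too, were also highest in this mouse, at 163, 14.0 and 21.0 CPM against medians of 15.6, 4.28 and 4.98 CPM. RS10_715 came next for Fosb (41.9 CPM), Atf3 (68.8), Nr4a1 (93.2) and Nr4a2 (12.6 CPM), so these genes were high in both mice. The library of RS10_727 was the shallowest, with 18.4 megacounts, its Dbp stood at 10.3 CPM, rank 18, and its enteric neuron and glia markers summed to 118 CPM, the highest of the 20 (69.7 to 110 in the others). The part of these in its Fosb and Atf3 values was not tested.

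RS10_721 (5% RPS) was above the median of the 20 mice for all 10 genes, with Fos at 343 CPM, Fosb at 40.9 and Egr1 at 63.5 CPM, although it was the highest mouse for none of them. It was the highest for 8 of 10 heat shock genes, against 8.5% of all tested genes. The inducible Hspa1a stood at 75.7 CPM (median 8.81) in this mouse and Hspa1b at 180 CPM (median 23.0). Its pancreatic acinar markers, of which 8 of the 9 listed were in the table, summed to 4858 CPM with none at 0, against 0.536 to 435 CPM in the other 19 mice, and its smooth muscle markers summed to 6685 CPM, the lowest of the 20. By diet the pancreatic sum ran from 1.12 to 3.83 CPM at 0%, 1.04 to 14.1 at 2%, 0.536 to 4858 at 5% and 1.18 to 435 CPM at 10% RPS. The part of pancreatic tissue in the 5% values was not tested. At the other end, RS10_716 (2% RPS) was above the median for 0 of the 10 genes, RS10_712 (2% RPS) for 1, and RS10_731 (10% RPS) and RS10_701 (0% RPS) for 2 each. High and low mice were therefore found on several diets.

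**Figure D3:**
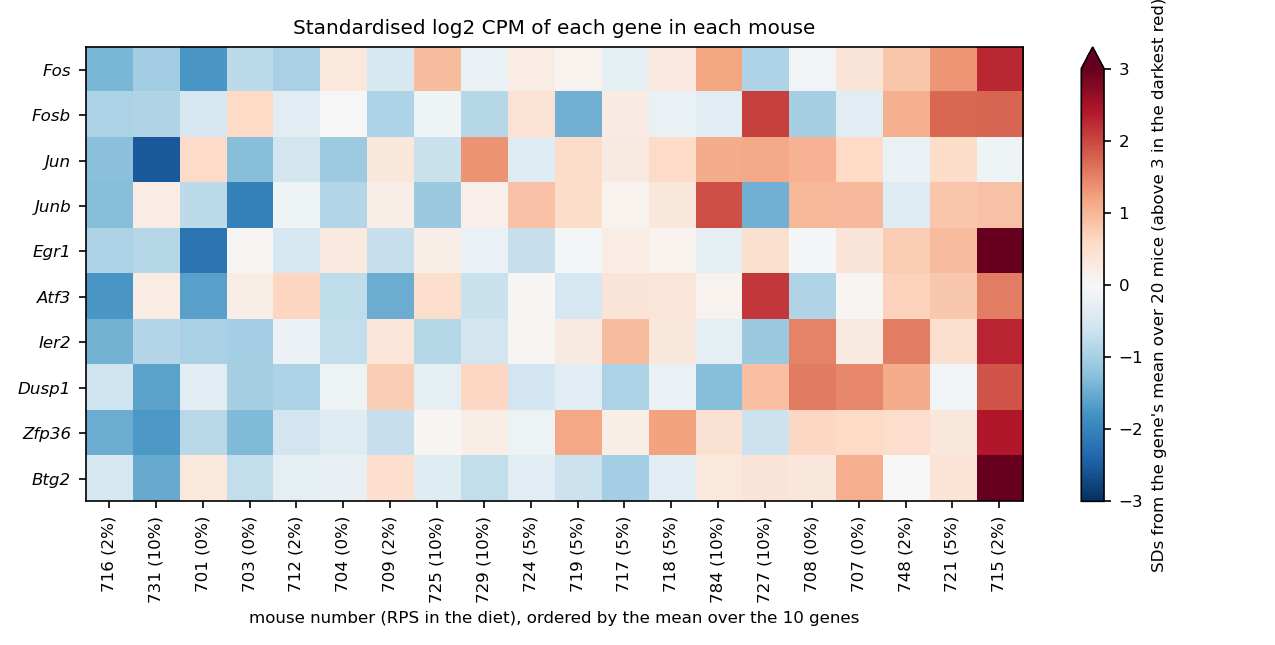
Log2 CPM of the 10 genes (rows) in the 20 mice (columns, mouse number with the RPS content of its diet), as SDs from the gene's mean, with red above and blue below it and the darkest red also standing for values above 3. Mice are ordered by the mean over the rows: RS10_716 (2%) is at the low end and RS10_715 (2%) at the high end, diets are interleaved, and RS10_727 (10%) is red in Fosb and Atf3 but blue in Fos and Junb.

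Across the 20 mice the 10 genes tended to rise and fall together, some pairs far more closely than others. Of their 45 pairs, 44 had a positive Pearson r of log2 CPM, and the median r was 0.462. An r of at least 0.5 was reached by 46.7% of the pairs (21), against 4.98% of all pairs of tested genes, and an r of at least 0.7 by 11.1% (5), against 0.614%. The median over all pairs of tested genes was 0. When each value was taken as the deviation from its own diet's mean the median r of the 45 pairs was 0.497, so the co-variation lay within diets. It leaned on 1 mouse in part: without RS10_715 the median r was 0.31, 40 pairs were positive and 14 reached 0.5. Without RS10_715 and RS10_727 it was 0.366. The genes were picked as a class known to act together and with earlier results of these data known, so the p-values that follow describe the pairs and are not independent evidence for the class.

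The closest pair was Fos and Zfp36, the AP-1 subunit and the mRNA decay factor, with r = 0.795 and Spearman's rho = 0.747 (permutation p = 4e-05 and 0.00023, adjusted over 45 pairs 0.000787 and 0.0045, n = 20). Its r was 0.707 without the mice farthest from the Fos median, RS10_701 and RS10_715. Fos and Egr1 gave r = 0.793 and rho = 0.681 (permutation p = 3e-05 and 0.00139, adjusted 0.000787 and 0.00894), and r = 0.596 without the same mice. Fosb and Atf3 gave r = 0.782 and rho = 0.756 (permutation p = 6e-05 and 0.00024, adjusted 0.000787 and 0.0045), and r = 0.63 without RS10_715 and RS10_727. Ier2 and Zfp36 gave r = 0.777 and rho = 0.75 (permutation p = 7e-05 and 0.0003, adjusted 0.000787 and 0.0045), and r = 0.682 without RS10_715 and RS10_748. Dusp1 and Btg2, the pair with a full CRE in the window printed above, gave r = 0.707 and rho = 0.695 (permutation p = 0.00012 and 0.00092, adjusted 0.00108 and 0.00828), and r = 0.64 without RS10_708 and RS10_715. Each of these 5 pairs thus kept an r of at least 0.596 without its 2 farthest mice. In all, 21 of the 45 pairs had an adjusted permutation p of at most 0.05 by Pearson's r and 12 by Spearman's rho, all of them positive. Without RS10_715 the count by Pearson's r was 9, and without both RS10_715 and RS10_727 it was 7.

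The pairs were uneven. Fos, Egr1, Ier2 and Zfp36 were joined by r values of 0.633 to 0.795. Fosb and Atf3 were joined to each other (0.782) and to Egr1 (0.648 and 0.675), but to Zfp36 only with r = 0.228 and 0.343, to Ier2 with 0.257 and 0.269 and to Junb with −0.142 and 0.042. Junb was nearest to Zfp36 (0.589) and Ier2 (0.58), and Jun nearest to Zfp36 (0.533). Jun gave r = 0.669 with Zfp36 without RS10_715, a mouse in which Jun was below its median. Fos and Fosb, close relatives in the AP-1 family, gave r = 0.425 (rho = 0.417, permutation p = 0.0615 and 0.0689, adjusted 0.111 and 0.141). Their r was 0.481 without RS10_715 and RS10_727 and 0.266 without RS10_715 alone.

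**Figure D4:**
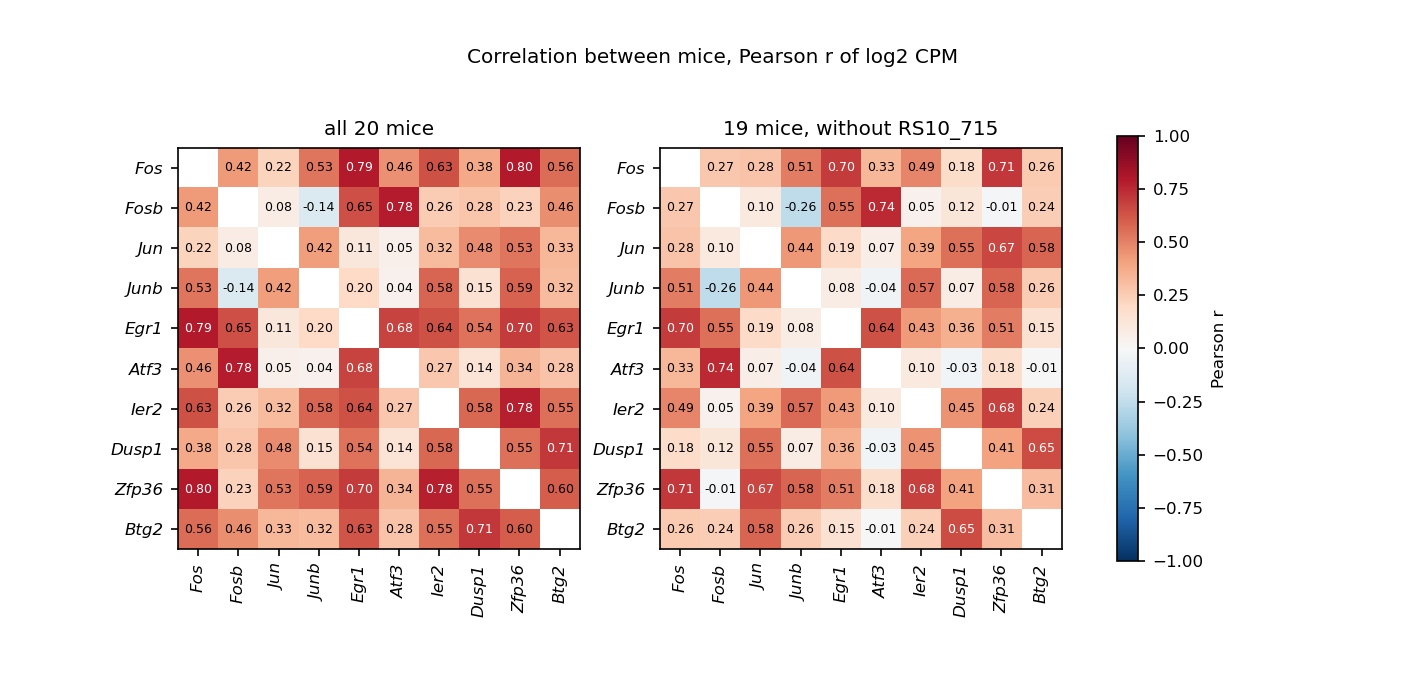
Pearson r of log2 CPM for each pair of the 10 genes, over all 20 mice on the left and over 19 mice on the right, with red for positive and blue for negative r. Fos with Zfp36 (0.795) and with Egr1 (0.793), and Fosb with Atf3 (0.782), are the darkest squares on the left and stay among the darkest without RS10_715 (0.708, 0.698 and 0.745).

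**Figure D5:**
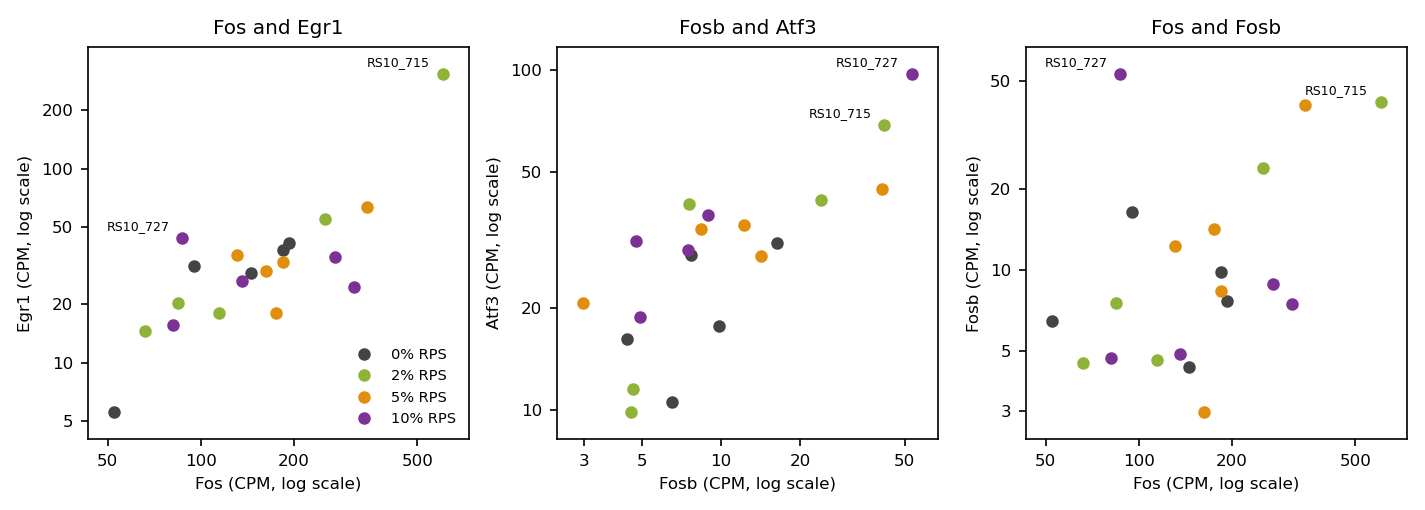
CPM of 3 pairs of genes in each of the 20 mice, both axes on a log scale, coloured by diet. In the Fos and Egr1 panel the mice form a rising band with RS10_715 at its end, in the Fosb and Atf3 panel RS10_727 and RS10_715 are at the top, and in the Fos and Fosb panel RS10_727 (86.9 and 53.3 CPM) lies far above the band.

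Taking each gene against the mean standardised profile of the other 9 genes, Zfp36 ranked 2 of the 17884 genes compared (r = 0.834), Egr1 3 (0.798), Fos 4 (0.773), Ier2 7 (0.737) and Btg2 14 (0.71). Dusp1 ranked 92 (0.599), and Atf3, Fosb, Junb and Jun ranked 386, 398, 815 and 926, with r from 0.388 to 0.47. The ranks leaned on RS10_715. Without it Zfp36 ranked 6, Fos 52, Egr1 61, Ier2 96, Jun 191, Btg2 597, Dusp1 689, Junb 1450, Atf3 2122 and Fosb 2617.

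Of the genes outside the 10 with a mean of at least 1 CPM, the one nearest to the mean profile of all 10 was Slc30a1, a zinc exporter (r = 0.844 over 20 mice, 0.714 without RS10_715). Gadd45a, a DNA damage and stress gene, followed at 0.824 (0.682), then Bhlhe40, a transcription factor that represses clock genes, at 0.783 (0.741). The cytokine Lif (0.778), the matricellular Ccn1 (0.768), the pyruvate dehydrogenase subunit Pdhb (0.76), the general transcription factor subunit Taf1 (0.758), the stress cytokine Gdf15 (0.747) and the growth factor Hbegf (0.725) were also among the 10 highest. Hbegf stood at 106 CPM in RS10_715 against 7.31 to 45.2 in the other 19 mice, and Ccn1 at 56.9 against 4.99 to 25.6 CPM. Both gave lower r without RS10_715 (0.52 and 0.581), while Pdhb and Gdf15 did not (0.781 and 0.785). The 5 lowest were 4833438C02Rik (−0.719), Disp1 (−0.716), Hexim1 (−0.702), an inhibitor of the elongation factor P-TEFb, Sox12 (−0.7) and 5330438D12Rik (−0.699). These are the extremes of a ranking and carry no test.

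Other immediate early genes followed the 10, though not all of them did. Of a list of 50 further ones, 48 were tested, and their median r with the profile was 0.438, with 18 (37.5%) at 0.5 or above against 1.73% of all tested genes. Without RS10_715 the median was 0.321 and 3 genes (6.25%) reached 0.5, against 2.64% of all tested genes. Nearest were Ccn1 (0.768), Phlda1 (0.705), a regulator of survival, and the kinase Plk3 (0.658). Lowest was the antiproliferative Btg1 (−0.478), a relative of Btg2 with 219 CPM in RS10_715, its lowest of the 20 mice, against a median of 349 CPM. RS10_715 was the highest mouse for 17 of the 48 (35.4%) and RS10_727 for 7 (14.6%), against 5.55 and 6.29% of all tested genes. Of the 48, 0 were called at any RPS level against 0%, and their median log2 fold change was 0.12 at 10%, 0.19 at 5% and 0.22 at 2% RPS, against −0.02, −0.01 and 0.00 for all tested genes. At an unadjusted p under 0.05 (edgeR), 10 of the 48 were higher and 0 lower at 10% RPS. Of all 17893 tested genes 1310 were higher and 1408 lower. At 5% RPS 5 of the 48 were higher and 1 lower, and at 2% 1 and 0. Genes that co-vary between mice are not independent in such counts. A slope over RPS percent past the threshold was found for 1 of the 48, against 2.1% of all tested genes. It was Nfkbiz, a nuclear regulator of NF-κB targets, at 44.2 ± 12.3 CPM (SD, n = 5) with 0%, 47.0 ± 7.36 with 2%, 59.4 ± 9.12 with 5% and 72.4 ± 11.3 CPM with 10% RPS (adjusted p = 0.0181, edgeR). Nfkbiz had r = −0.03 with the profile of the 10 genes.

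The genes upstream gave lower r with the 10 genes. All 21 listed kinases and transcription factors that act on immediate early genes were tested, and their median r with the profile was 0.094, with 0 at 0.5 or above over the 20 mice. Mapk8, the JNK gene (0.373), and Crem (0.347) were among the 3 nearest and Mrtfa, a cofactor of serum response factor, was lowest (−0.422). A slope past the threshold was found for 1 of the 21, against 2.1% of all tested genes. It was Rps6ka3, the kinase RSK2, at 119 ± 6.74 CPM with 0%, 117 ± 8.56 with 2%, 125 ± 4.92 with 5% and 143 ± 9.56 CPM with 10% RPS (SD, n = 5; adjusted p = 0.0186, edgeR). Its r with the profile was 0.107.

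Depth, the clock gene Dbp and 8 tissue marker scores were set against each of the 10 genes over the 20 mice, 100 relations in all, and 0 had an adjusted permutation p of at most 0.05 (smallest 0.393). The erythrocyte score had the highest r, from 0.221 to 0.62, but its highest values fell by rank and without the 2 mice farthest from the median score. For Btg2 r was 0.62, rho 0.083 and r without those mice −0.109. For Egr1 these were 0.577, 0.212 and 0.089, for Zfp36 0.528, 0.191 and 0.092, and for Fos 0.466, 0.188 and −0.119. Jun differed, with 0.244, 0.346 and 0.353. The part of blood in the high values was not tested. For Dbp r ran from −0.573 to 0.433, for smooth muscle from −0.497 to −0.164, for epithelium from −0.483 to 0.18, and for total count from −0.386 to 0.229. The ends of the Dbp range were Fosb and Junb. For Fosb rho was −0.546 and r was −0.755 without the 2 mice farthest from the median Dbp. For Junb these were 0.469 and 0.16. Without RS10_715, 1 relation passed: Zfp36 fell as the fibroblast score rose (r = −0.762, adjusted p = 0.012 by permutation, against r = −0.442 over all mice). Without the 3 mice whose labels disagree, Fosb and Dbp gave r = −0.783 (adjusted p = 0.05 by permutation, against r = −0.573 over all mice).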

How the data were processed

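Per the study's methods, the authors trimmed bases of low quality, mapped single-end reads from stranded mRNA libraries to GRCm39 in CLC Genomics Workbench and deposited a raw count per gene for each of 20 mice, not normalised and not pooled. Handling of reads that match several genes is not given in the sources used here. From these counts, symbols were set through GENCODE Ensembl IDs. Libraries were scaled by TMM. Genes were filtered with filterByExpr (minimum count 10) and fitted in edgeR 4.0.16 (R 4.3.3) in one quasi-likelihood model of 4 diets with 5 mice each, with Benjamini-Hochberg adjustment over all 17893 tested genes. DESeq2 1.42.0 was an alternative. Log2 CPM (prior count 2) gave the correlations, with two-sided tests of 100000 permutations. The scripts were tested on simulated data.

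The members and lists were chosen with earlier results of these data known. Genes named were the 10 members, the 10 nearest and 5 farthest genes to their mean profile (mean of at least 1 CPM), and, per list, called genes with the 3 nearest and the farthest. Some genes that this rule names are not reported here. Genes singled out in 1 mouse were named after their values were seen. Markers of 8 cell types were summed as CPM per mouse for the levels given. The marker scores used for correlations were instead the mean log2 CPM of the markers that passed the filter, 4 of the 9 listed for pancreatic acinar cells. Within diets, counts of 40 pairs of mice differed by more than sampling noise (chi-square per degree of freedom 9.10 to 62.9), so none was the same library sequenced again. Another library of the same mouse would not be seen this way, and pairs of mice on different diets were not compared. P-values of the diet tests judge a difference against the spread between mice, and those of the correlations come from shuffling the mice.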

Additional observations from a re-analysis of the deposited data

Results flagged for a closer look

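A mouse was listed here when its gap to the nearest mouse of its diet exceeded Dixon's 95% limit. Chance passes that limit in about 1 of 20 tests where values are normally distributed. Of 44 tests made, 6 passed, where that rate would give 2.2. The tests used CPM and not log2 CPM, and the genes co-vary between mice. The 2 counts therefore cannot be weighed against each other, and the list only points to values that stand apart in CPM. In the 2% diet, RS10_715 stood alone in Egr1, with 306.5 CPM against 54.8 in the next mouse, and in Btg2, with 383.1 CPM against 182. In the 5% diet, RS10_721 stood alone in Fos, with 342.9 CPM against 183.6 in the next mouse. In the 10% diet, RS10_727 stood alone in Fosb, with 53.3 CPM against 8.90, and in Atf3, with 97.1 CPM against 37.5. In the 5% diet, mouse RS10_724 had the smallest library, with 22.3 megacounts against 28.7 in the next.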

How the results depend on the processing

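Under each alternative run, 0 of the 10 genes were called at any RPS level against 0%, for the slope or for any diet difference; the fit of only the groups compared was run for the RPS levels alone. These alternatives were DESeq2, RLE scaling, no filter on low counts, only the groups compared, the treatment label, omission of the 3 mice with disagreeing labels, of each mouse in turn, or of RS10_715 and RS10_727 together (the last chosen after their values were seen). The smallest adjusted p of a member in any of these fits was 0.19, for the slope without RS10_715. Signs of small fold changes turned. The log2 fold change of Egr1 at 10% RPS was 0.005 by DESeq2, 0.003 by RLE scaling and 0.183 by the treatment label, against −0.004. By the treatment label Dusp1 at 2% was −0.092 and Zfp36 at 10% was 0.013. Without RS10_715 and RS10_727, the log2 fold changes at 2% RPS were −0.051 (Fos), −0.074 (Junb), −0.109 (Egr1), −0.098 (Dusp1), −0.127 (Zfp36) and −0.099 (Btg2), and those at 10% were −0.448 (Fosb), −0.001 (Jun) and 0.015 (Zfp36). With each mouse left out in turn, the log2 fold changes whose sign turned ranged at 2% RPS from −0.051 to 0.977 (Fos), −0.098 to 0.168 (Junb), −0.109 to 1.779 (Egr1), −0.097 to 0.177 (Dusp1), −0.127 to 0.334 (Zfp36) and −0.099 to 0.371 (Btg2), and at 10% from −0.448 to 1.144 (Fosb), −0.021 to 0.159 (Jun), −0.112 to 0.26 (Junb), −0.273 to 0.157 (Egr1) and −0.12 to 0.088 (Zfp36). The causes were not tested. The count of pairs past the threshold was 21, 12 by Spearman's rho, 7 without both mice and 9 (without RS10_715) to 23 with a mouse left out, and the median r was 0.31 to 0.533 with a mouse left out. The count of relations with depth, Dbp and marker scores was 0, 1 without both mice, 1 without the 3 mice with disagreeing labels and 0 to 1 with a mouse left out. No paired analysis was possible because mouse numbers are not shared between diets. Depth limits Fosb most, where counting error reached 10.7% of a value.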

Other observations

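Heat shock genes, which respond to protein damage and to warming of tissue, had lower r with the profile of the 10 genes than the further immediate early genes did. The 10 listed had a median r of 0.215, against −0.01 for all tested genes, from 0.12 (Hspa8) to 0.292 (Hspe1), followed from the top by Hspd1 (0.277) and Hspb1 (0.267). Of the 10, 0 were called at 10, 5 or 2% RPS or for the slope, where 0.0391, 0, 0 and 2.1% of all tested genes were, and the median log2 fold change was 0.37 at 10% and 0.37 at 5% RPS, with −0.03 at 2% (median of all tested genes −0.02, −0.01 and 0.00).

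Of the 8 glucocorticoid response genes, Errfi1, a brake on EGF receptor signalling, and Sgk1, a kinase, had the highest r with the profile (0.601 and 0.545), and both are also on the list of further immediate early genes. Fkbp5 followed (0.261) and Tsc22d3, the gene for GILZ, was lowest (−0.299). Without RS10_715, the highest mouse for Errfi1 and Sgk1, r was 0.369 for Errfi1, 0.374 for Sgk1 and 0.328 for Fkbp5. Of the 17 clock genes the median r was −0.064, with Bhlhe40 at 0.783, Clock at 0.228, Nfil3 at 0.209 and Cry2 lowest at −0.389. Without RS10_715 the median was 0.024, and these genes gave 0.741, −0.177, −0.041 and −0.214 in the same order. Nfil3 was highest in RS10_727, at 11.9 CPM against a median of 2.41 CPM. Of the 8 and the 17 genes, 0 were called at any RPS level or for the slope, beside the same shares of all tested genes (0.0391, 0, 0 and 2.1%).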
